A study of Rapana venosa with 9 samples.

Results

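Rapana venosa, a predatory sea snail, passes at metamorphosis from a swimming larva that feeds on algae to a crawling juvenile. The comparison described here sets the miRNAs of postlarvae (PL, juveniles) against those of competent larvae (CL, with 4 spiral whorls, ready to settle). It uses 6 of the 9 small RNA libraries of the series, 3 per stage, chosen by their stage labels. Precompetent larvae entered the shared fit, that is, the filter, the scaling and the estimate of spread, and are not compared here. All animals came from parents collected in the wild and were reared without any treatment, and no genotype or sex is given. The labels describe a replicate as a pool of 40 to 100 individuals, but also name the intestine of an individual as the source of RNA, so the tissue behind a library is not settled. In either case, a lower value can mean fewer cells of a type or less of the miRNA in each cell, and these cannot be told apart.

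A miRNA is a short RNA that guides an Argonaute protein to messenger RNAs, mainly through its seed, bases 2 to 8 from the 5′ end, and lowers the output of the messengers it pairs with. It is cut from a hairpin precursor whose arms form a short duplex, and usually one strand of the duplex is kept while the other is degraded. In insects let-7, miR-100 and miR-125, and in nematodes let-7 and lin-4, a relative of miR-125, are known for their part in the timing of development.

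The deposited table lists 918 miRNA references of 18 to 26 nt, and 794 of them had at least 1 count in the libraries compared. Each reference carries the name of a miRBase miRNA with an ending -x, -y or -z, or was predicted by the authors. The sequences given here are the deposited references, 5′ to 3′, with the seed in capitals. The first set holds miRNAs called lower in PL that were abundant in CL or whose level fell most.
miR-242-x: tTGCGTAGgcgttgtgcacaga
miR-263-x: aATGGCACtggtagaattcacggg
miR-36-y: tCACCGGGtatacattcatc
miR-71-x: tGAAAGACatgggtagtgagatc
miR-216-x: tAATCTCAgctggtaattctg
miR-96-x: cTTGGCACtggcggaatagtca
Reference miR-183-x has the same letters as miR-263-x, and miR-37-y the same letters as miR-36-y. Reference miR-283-x is miR-216-x with extra bases at its 3′ end.

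The second set holds the miRNAs that gained most in PL or that stand for a family.
miR-315-x: tTTTGATTgttgctcagaaagcc
miR-1984-x: tGCCCTATccgtcaggaactgtg
miR-100-x: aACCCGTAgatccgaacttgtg
miR-99-x: aACCCGTAgatccgaacttg
miR-125-x: tCCCTGAGaccataacttgtga
miR-1175-y: tGAGATTCaactcctccaactgc
miR-278-y: tCGGTGGGacttttgttcggtt
miR-133-z: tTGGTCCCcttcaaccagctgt
miR-276-y: tAGGAACTtcataccgtgctct
miR-182-x: cTTGGCACttgtagaattcact
Reference miR-99-x is miR-100-x without its last bases, so both share a seed and a shortened read can count for either. The seed of miR-182-x equals that of miR-96-x in the first set, and these references changed in opposite directions.

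The last set holds arm pairs, shown because their strands changed unequally or together. The labels do not explain the endings; -x or 5p and -y or 3p were read as the opposite strands of a hairpin.
let-7-x: tGAGGTAGtcggttgtatagtt
let-7-y: cTGTACAAcctgctagctttcc
miR-92-x: gGGTCGTGacttgtgcaaatt
miR-92-y: aATTGCACgtgtcccggcctgt
miR-219-x: tGATTGTCcaaacgcaattcttg
miR-219-y: aGAACTGTgtgtggacatc
predicted pair A, 5p: gATCGGGCtttgcgtaggaagca
predicted pair A, 3p: cTTCGGCGcgaactcggtcc
predicted pair B, 5p: aGTACTACagctctggagaggt
predicted pair B, 3p: cAGCTCAGgactgctgtgc
predicted pair C, 5p: tTGAGCTGgaagaagcctctgatg
predicted pair C, 3p: tCAGACTTcaggcagctgtgc
The letters A to D are used here for pairs that the authors predicted, and their identifiers are not repeated.

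The miRNA counts summed to 6781384, 6697839 and 5130258 in CL and to 3762511, 5028072 and 5506976 in PL. In PL a larger part of the sequenced reads was not miRNA. Reads annotated as tRNA made up 0.0918 to 0.101% of clean reads in CL and 0.770 to 0.963% in PL, and rRNA 3.20 to 3.87% and 6.73 to 9.26%. Reads removed as shorter than 18 nt were 5.46 to 6.26% in CL and 9.0 to 19.0% in PL. The part of these differences in the results was not tested. Levels are given on a pair of scales, namely the share of a library's miRNA counts and the CPM, counts scaled to a common library size, after TMM scaling, in which edgeR sets the bulk of references equal between libraries. On the second scale PL values are lower relative to CL than on the first, with a median log2 fold change over all tested references of 0.20 against 0.79 with total counts as library size.

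The miRNA pool was concentrated in both stages. The 10 most abundant references of a library held 67.5, 68.1 and 68.9% of its miRNA counts in CL and 70.3, 69.3 and 69.2% in PL. The means were 68.2 ± 0.701% and 69.6 ± 0.576% (SD, n = 3), and the exact permutation test gave p = 0.1, the smallest that 3 libraries against 3 allow. In every library 6 references sufficed for 50% of the counts, and 19 in CL and 20 or 21 in PL for 90%. The effective number of references (2 to the power of the Shannon entropy in bits of the shares) was 21.4 ± 0.489 in CL and 22.9 ± 0.384 in PL (SD, n = 3), without overlap and again at p = 0.1 by the exact permutation test. The top share gave PL as the more concentrated stage and the effective number as the less, by small amounts, and the design cannot reach a smaller p. Only part of the leading references was shared. Of the 10 references with the highest mean share in each stage, 6 were in both lists, namely miR-184-y, miR-71-x, miR-1-y, miR-750-y, miR-279-y and miR-10-x. The shares of all references together lost and gained 28.2 percentage points between the stages.

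**Figure D1:**
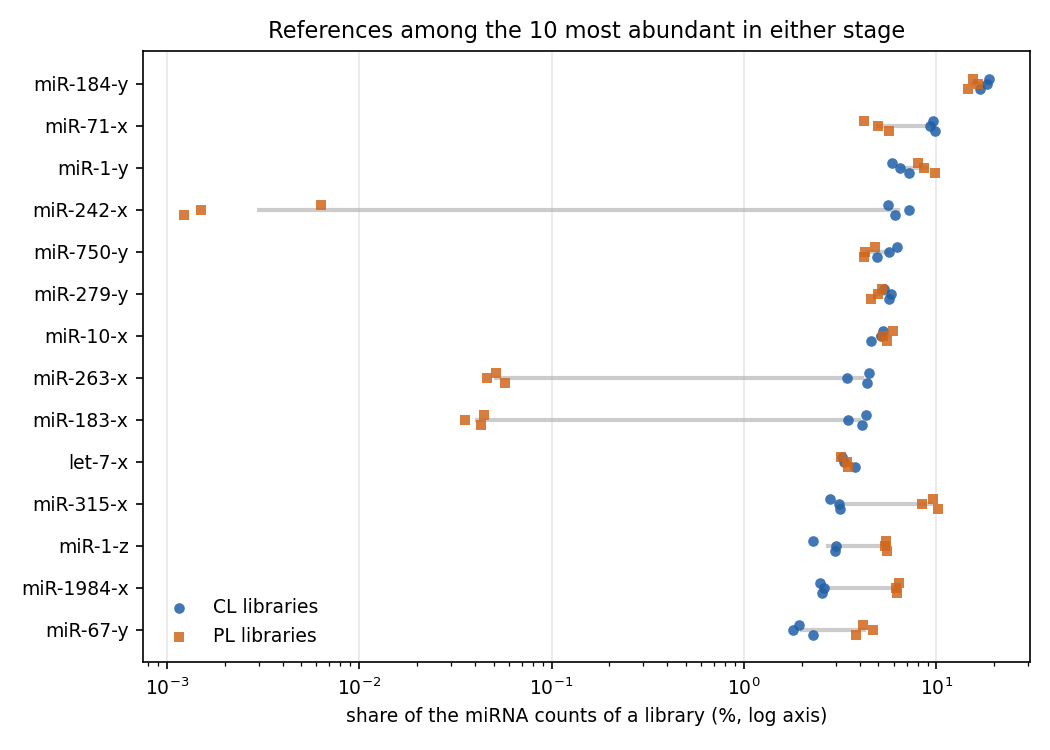
Share of the miRNA counts in each CL (blue circles) and PL (orange squares) library, on a log axis, for the references among the 10 most abundant of either stage; grey lines join the stage means. In PL miR-242-x, miR-263-x and miR-183-x lie far to the left, and miR-315-x, miR-1984-x, miR-1-z and miR-67-y to the right of their CL values.

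The most abundant reference of both stages was miR-184-y, a miRNA conserved from molluscs to vertebrates. It held 16.9, 18.4 and 18.9% of the counts in CL and 14.6, 16.5 and 15.5% in PL, and its change was not called (log2 fold change -0.81, SE 0.35, edgeR adjusted p = 0.0929). The PL values were all below those of CL.

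Of the references that left the pool, miR-242-x changed most. It held 6.08, 7.17 and 5.60% of the counts in CL, where it ranked 4, and 0.00122, 0.00151 and 0.00632% in PL, where it ranked 84. In counts these were 412222, 480527 and 287124 against 46, 76 and 348. The stages were far apart, and PL 3 held more of what was left than the other PL libraries. The log2 fold change was -11.50 (SE 0.91, edgeR adjusted p = 2.95e-05). Its name is that of a nematode miRNA.

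The identical references miR-263-x and miR-183-x followed. Members of this family protect sensory bristles from cell death in Drosophila, and in vertebrates miR-183 is a miRNA of sensory hair cells and photoreceptors. Reference miR-263-x held 4.34, 3.42 and 4.49% in CL and 0.0575, 0.0461 and 0.0515% in PL, a log2 fold change of -6.87 (SE 0.25, edgeR adjusted p = 1.16e-07). For miR-183-x the shares were 4.10, 3.47 and 4.33% against 0.0428, 0.0356 and 0.0444%, a log2 fold change of -7.16 (SE 0.29, adjusted p = 1.54e-07). Since their letters are the same, these are 2 counts of one sequence and not independent results. Together with miR-242-x they held 14.3 ± 0.241% of the counts in CL and 0.0956 ± 0.0108% in PL (SD, n = 3). In the deposited counts these 3 references made up 14.2 of the 28.2 percentage points lost. Whether a read was counted for both identical references was not tested, and where it was, such sums of shares are too high. In the CL libraries the summed miRNA counts were 1.01 to 1.02 per read annotated as miRNA.

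The protostome miRNA miR-71-x, which influences lifespan in nematodes, lost the next largest share. It stood at 9.89, 9.24 and 9.66% in CL and at 5.70, 4.98 and 4.20% in PL, without overlap, with a log2 fold change of -1.54 (SE 0.19, edgeR adjusted p = 0.000382). With total counts as library size the value was -0.95 and it was no longer called, so the call of a decrease over 2-fold rests on the scaling.

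The space in the pool was taken mainly by miRNAs that were already common. The share of miR-315-x, a miRNA that raises Wingless signalling in Drosophila cells, was 3.17, 3.10 and 2.81% in CL and 10.2, 8.40 and 9.59% in PL, where it ranked 2. The log2 fold change of its CPM was 1.06 (SE 0.19, edgeR adjusted p = 0.00198), just past the 2-fold limit. The call was lost when the value came under that limit, as it did without PL 3 (0.90, adjusted p = 0.00799), with only the CL and PL libraries fitted (0.91) and with no filter (0.995). The stages did not overlap on either scale.

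The lophotrochozoan miRNA miR-1984-x went from rank 15 to rank 4. Its share was 2.54, 2.61 and 2.48% in CL and 6.26, 6.19 and 6.41% in PL. On the TMM scale the log2 fold change was 0.73 (SE 0.18, adjusted p = 0.0108), under the 2-fold limit, and with total counts it was 1.30 and called. The references miR-1-y and miR-1-z, which differ by their last bases and stand for the muscle miRNA miR-1, held together 9.27 ± 1.04% in CL and 14.3 ± 0.986% in PL (SD, n = 3). Neither was called on the TMM scale, with log2 fold changes of -0.14 (SE 0.17) for miR-1-y and 0.42 (SE 0.22) for miR-1-z. Likewise miR-67-y went from 2.01 ± 0.255% to 4.21 ± 0.439% of the counts (SD, n = 3), at a log2 fold change of 0.49 (SE 0.22, adjusted p = 0.103) for its CPM. For these abundant miRNAs the gain in share was clear of the spread between libraries, while the change after TMM scaling was not called.

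Across all references, 214 had enough counts for a test with edgeR. Of these, 79 were called (adjusted p limit 0.05, fold change over 2), which is 36.9% of those tested, with 48 higher in PL (22.4%) and 31 lower (14.5%). All 79 had no overlap of CPM between the stages, as had 129 of the 214 tested. More references were called higher than lower under each scaling tried, but the split depends on it, since total counts as library size gave 76 higher and 17 lower, or 81.7% of calls higher against 60.8%. The split depends on the filter too. Of the 48 called higher, 17 had no count in CL, and only 3 of these 17 had any in precompetent larvae. The rest of the 17 passed the filter through PL alone, so they could only be called higher. Of the 31 called lower, 3 had no count in PL. Under TMM, DESeq2's scaling, clean reads and total counts alike, 47 references were called higher and 17 lower. The references called lower held 32.9 ± 0.445% of the miRNA counts in CL and 9.53 ± 0.790% in PL, and those called higher 3.56 ± 0.230% and 13.7 ± 0.739% (SD, n = 3). The choice of the references by their change fixes this direction. On the TMM scale, decreases prevailed among abundant miRNAs and increases among rarer ones. Of the 26 references with a stage mean over 10000 CPM, 8 were called lower and 2 higher, whereas of the 123 over 10 CPM, 21 were called lower and 28 higher. With total counts the first of these splits was 4 lower and 8 higher.

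**Figure D2:**
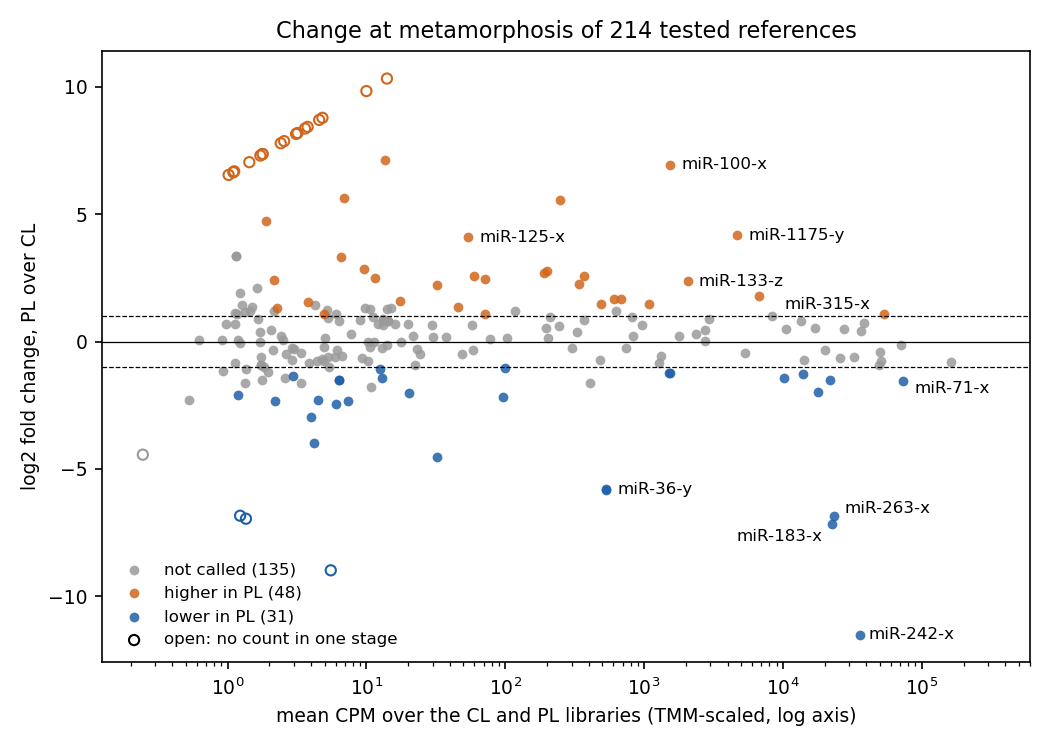
Log2 fold change of PL over CL against the mean CPM (log axis) of the 214 tested references, coloured by call; dashed lines mark the 2-fold limit and open circles the references without a count in one stage, whose fitted values are no measure of size. Deep decreases occur among abundant references, such as miR-242-x, and among rare ones, such as miR-92-x, and the open circles lie at low CPM.

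In the let-7 complex miR-100-x, miR-99-x and miR-125-x rose, and let-7 and miR-10-x were not called on the TMM scale. The list holds the let-7, miR-100 and miR-10 types and miR-125, and 3 of its 7 tested references were higher, none was lower, and 4 were not called (median log2 fold change 0.65, against 0.20 over all tested). The share called higher over all tested references was 22.4%, and that called in either direction 36.9%, against 42.9% of this list. Reference miR-100-x had 275, 112 and 57 counts in CL and 14370, 19924 and 23180 in PL. In CPM it rose from 24.9 ± 14.3 to 3065 ± 536 (SD, n = 3). The log2 fold change was 6.94 (SE 0.48, edgeR adjusted p = 1.29e-05), and its rank went from 78 to 29. Its shorter form miR-99-x rose from 10.4 ± 2.32 to 487 ± 51.9 CPM. For miR-125-x the counts were 34, 12 and 48 in CL and 422, 711 and 809 in PL, and its log2 fold change was 4.09 (SE 0.94, adjusted p = 0.00652). The CL libraries were low and spread out for both, and no PL library came near them. By contrast let-7-x, the most abundant member, held 3.76, 3.32 and 3.23% of the counts in CL and 3.48, 3.45 and 3.21% in PL. Its log2 fold change was -0.60 (SE 0.33, adjusted p = 0.176), and miR-10-x gave -0.41 (SE 0.31). In Drosophila let-7, miR-100 and miR-125 come from one transcript, and their loci in the whelk were not analysed here.

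The sensory organ list, miR-183, miR-263, miR-228, miR-96 and miR-182, had 4 of 5 tested references lower and 1 higher. Over all tested references 14.5% were lower and 22.4% higher. The 5 form only 3 near-identical groups, as miR-263-x, miR-183-x and miR-228-x lie within 2 mismatches of one another. Apart from miR-263-x and miR-183-x, the decrease was milder for miR-96-x, with 2.68, 2.94 and 2.87% in CL and 1.61, 1.41 and 1.48% in PL (log2 fold change -1.50, SE 0.28, edgeR adjusted p = 0.00234), and it was not called with total counts (-0.92). Reference miR-228-x, which differs from miR-263-x by 2 bases, had 17, 13 and 14 counts in CL and none in PL, so it was at least 5.51-fold lower against a floor of 3 counts per library. With up to 2 mismatches allowed in the counting, a read of one can also align to the other. In vertebrates miR-182 comes from the same cluster as miR-183 and miR-96. In the whelk, miR-182-x went the other way, from 302, 55 and 49 counts to 581, 807 and 867, at a log2 fold change of 2.44 (SE 0.74, adjusted p = 0.0262). CL 1 held several times more than the other CL libraries. Leaving out CL 2, CL 3, PL 2 or PL 3 took its adjusted p to between 0.0527 and 0.0928.

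The list of miR-36, miR-37 and miR-242 had 3 of 3 tested references lower, of which 2 have the same letters. Over all tested references 14.5% were lower. Since the lists were chosen with earlier results of these data known, this count is no test of the list. The identical miR-36-y and miR-37-y belong to a family that is needed in nematode embryos. Reference miR-36-y had 6801, 6099 and 4390 counts in CL and 86, 118 and 148 in PL, a log2 fold change of -5.80 (SE 0.60, edgeR adjusted p = 0.000121). As with miR-242-x, some counts were left in every PL library.

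**Figure D3:**
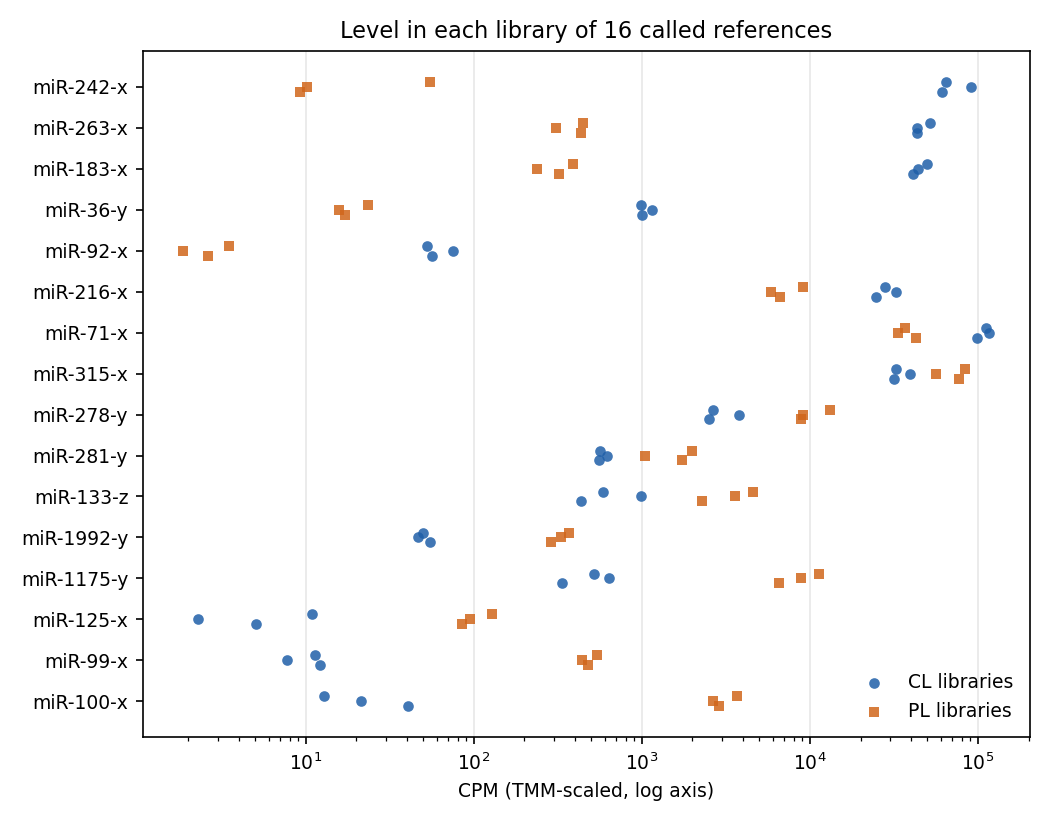
CPM after TMM scaling, on a log axis, of 16 called references in each CL (blue circles) and PL (orange squares) library. The stages do not overlap in any row, and PL 3 holds the highest PL value of miR-242-x.

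Of the muscle list, miR-1 with miR-206 and miR-133, the references miR-133-z and miR-133-y rose, and the 3 of the miR-1 and miR-206 type were not called. Thus 40% of its 5 tested references were called, close to the 36.9% over all tested. The called references are near-identical, at 1 mismatch. In vertebrates miR-1 and miR-133 come from shared precursors and act in muscle. The counts of miR-133-z were 2949, 5236 and 2605 in CL and 11382, 26810 and 28869 in PL, with means of 671 ± 286 and 3470 ± 1149 CPM (SD, n = 3) and a log2 fold change of 2.37 (SE 0.42, edgeR adjusted p = 0.00198). Reference miR-133-y, which ends in another base, gave 2.58 (SE 0.39). PL 1 was the lowest PL library for both, and still above CL.

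On the neural list, 5 of 12 tested references rose, none fell, and 7 were not called (median 0.97), so that 41.7% were called, close to the 36.9% over all tested. The called ones were miR-9-y, miR-79-y, miR-79-x, miR-190-x and miR-219-x, of which miR-9-y lies within miR-79-y and can share its reads. Reference miR-190-x had 219, 294 and 254 CPM in CL and 620, 689 and 847 in PL (log2 fold change 1.49, SE 0.28, edgeR adjusted p = 0.00234). The neuronal miRNA miR-124-y gave 0.61 (SE 0.23) and the photoreceptor miRNA of Drosophila, miR-7-x, 0.52 (SE 0.27), and neither was called. The most abundant miR-9 reference, miR-9-z, gave 0.98 (SE 0.23, edgeR adjusted p = 0.00722), under the 2-fold limit. With total counts these were 1.21, 1.09 and 1.55 and called higher. References miR-137-y, miR-153-y and miR-219-y were not called with total counts either (0.78, 0.88 and 0.36). Calls of miR-79-x and miR-219-x (adjusted p = 0.0399 and 0.0386) were lost when any one of the CL or PL libraries was left out, at adjusted p up to 0.139 and 0.127.

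On the epithelial list 2 of 10 tested references were higher and 3 lower, against 22.4% and 14.5% over all tested. Among them miR-375-y, a miRNA of pancreatic islets in vertebrates, fell from 14857 ± 3684 to 5481 ± 1159 CPM (SD, n = 3). Its log2 fold change was -1.44 (SE 0.31, edgeR adjusted p = 0.00489). The identical miR-31-x and miR-72-x fell by 1.23 and 1.24 on the log2 scale. With total counts none of these was called (-0.85 for miR-375-y and -0.65 for miR-31-x). On the same list miR-8-y, the main strand of the family that maintains epithelial character in vertebrates, went from 0.861 to 2.22% of the counts, at a log2 fold change of 0.80 (SE 0.25) below the 2-fold limit, or 1.37 and called with total counts. The references called higher were miR-200-x and the minor strand miR-8-x, whose call (adjusted p = 0.00999) was lost without CL 3 (0.0555).

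Clusters of protostome miRNAs behaved unevenly as well. Of the miR-12, miR-216 and miR-283 cluster, miR-216-x and its longer form miR-283-x were lower, and miR-12-x and miR-12-z were not called. Reference miR-216-x had 167911, 170872 and 123762 counts in CL and 33069, 43890 and 57658 in PL, with a log2 fold change of -1.98 (SE 0.21, edgeR adjusted p = 0.000121), and it was called lower with total counts too. Of the miR-71 and miR-2 cluster, both strands of miR-71 were lower. The call of miR-71-y (adjusted p = 0.0396) was lost with total counts (0.132) and without CL 1, CL 2, CL 3, PL 1 or PL 2, at adjusted p of 0.0551 to 0.233, while miR-2-y gave -0.33 (SE 0.26) and miR-13-y 0.94, and neither was called. Of the miR-34, miR-277 and miR-317 cluster, miR-317-y was called and rose from 118 ± 17.6 to 564 ± 149 CPM (SD, n = 3). In the family of bantam, which promotes growth in Drosophila, the main reference bantam-y gave -0.43 (SE 0.22, adjusted p = 0.14), or 0.15 with total counts, so that its direction turned with the scaling.

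Of the 7 called increases with a stage mean over 1000 CPM, miR-1175-y had the largest log2 fold change after miR-100-x. It had 2266, 3365 and 2315 counts in CL and 32571, 66431 and 71929 in PL, or 0.0334, 0.0502 and 0.0451% against 0.866, 1.32 and 1.31% of the pool, and went from rank 47 to rank 21. The log2 fold change was 4.16 (SE 0.46, edgeR adjusted p = 0.000159). Its opposite strand miR-1175-x rose as well, by a log2 fold change of 2.78 (SE 0.35, adjusted p = 0.000382). In insects miR-1175 and miR-750 are neighbours. Here miR-750-y, at rank 5 in CL and rank 9 in PL, gave -0.93 (SE 0.28, adjusted p = 0.0244) and was not called.

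On the list of lophotrochozoan miRNAs, whose members were taken by name, 3 of 12 tested references rose, 1 fell and 8 were not called (median 0.69). This makes 33.3% called against 36.9% over all tested. Those that rose were miR-1992-y, from 50.4 ± 4.45 to 328 ± 41.5 CPM (SD, n = 3), miR-1986-y, at a log2 fold change of 2.49 (SE 0.45), and miR-745-y, at 1.68 (SE 0.35). The seed of miR-745-y is also that of miR-22-y, which is not on this list, and whether miR-745-y belongs to the group was not tested. The abundant miR-1985-x fell, from 19536 ± 2709 to 8156 ± 896 CPM, with a log2 fold change of -1.26 (SE 0.17, edgeR adjusted p = 0.00059), which was -0.68 and not called with total counts. Its libraries did not overlap between the stages.

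Of the other protostome miRNAs, 7 of 22 tested references rose and none fell, or 31.8% called against 36.9% over all tested. Reference miR-278-y, which in Drosophila takes part in energy balance, had 16991, 19947 and 11673 counts in CL and 44152, 68424 and 83218 in PL (log2 fold change 1.80, SE 0.25, edgeR adjusted p = 0.000611). Reference miR-276-y had 3, 0 and 0 counts in CL and 93, 270 and 170 in PL. The ratio of the summed counts over the scaled library sizes was 155 (95% exact interval 52.9 to 756, for counting error only). It was nearly absent from CL, and present in each PL library.

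**Figure D4:**
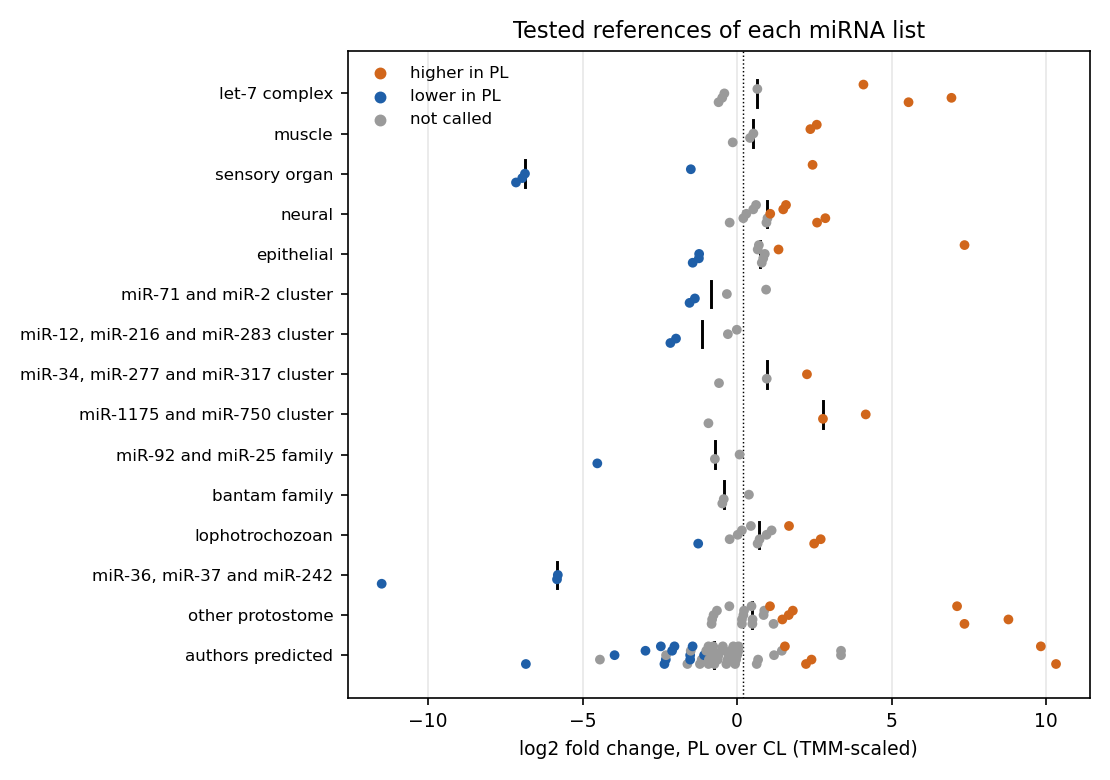
Log2 fold change of PL over CL of each tested reference, by list; points are coloured by call, black bars are list medians and the dotted line is the median of all 214 tested (0.20). The let-7 complex holds members far to the right and members near the dotted line. All 3 tested references of miR-36, miR-37 and miR-242 lie far to the left, and miR-36-y and miR-37-y have the same letters. Lists were chosen with earlier results of these data known.

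References that share a seed did not always move together. Among the tested references, 37 seeds were shared by 2 or more, and 85 references carried them, often because the references were near-identical. In 10 seeds the carriers were distinct by more than 2 mismatches. Opposite calls occurred in 2 seeds on the TMM scale, and in neither of them with total counts, where the member that was lower was not called (-0.92 and -0.87). One is the seed of miR-96-x and miR-182-x, of which the first fell by 1.50 and the second rose by 2.44 on the log2 scale. The other belongs to miR-149-y, which had no count in CL, and to a predicted miRNA that fell by 1.44:
predicted miRNA G: tAGGGACTgtgccatcaacca
Its call was lost when CL 2, CL 3, PL 1 or PL 2 was left out, at adjusted p up to 0.113. In counts, miR-96-x exceeded miR-182-x in every library of both stages.

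A further 17 of the 48 increases were references without a single count in CL. They had 10 to 178 counts per PL library and made up 0.0162 ± 0.00257% of the PL pool (SD, n = 3). The highest were both strands of predicted pair A, with 118, 97 and 148 counts for 5p and 178, 160 and 173 for 3p, at least 35.5-fold and 49.9-fold higher than a floor of 3 counts per CL library. Of the references with miRBase names, miR-965-x had 48, 69 and 64 counts and was at least 17.1-fold higher. The bound was 16.2 for miR-1643-x, 13.4 for miR-149-y, 12.8 for miR-1344-x and 11.3 for miR-1384-y, and it was 11.1, 9.07 and 8.58 for miR-5606-x, miR-1957-x and miR-6677-x. Each of these had counts in all 3 PL libraries. Over all 17 the bound ranged from 3.61 to 49.9, with a median of 9.07. Short references were common among them, since 10 of the 17 were 18 nt long, against 17 of the other 197 tested. Reads of tRNA and rRNA and those under 18 nt were more frequent in PL, and their part in these counts was not tested. In the opposite direction 3 called references had no count in PL, miR-9852-y (86, 51 and 48 counts in CL, at least 22.5-fold lower), miR-228-x and the 3p strand of predicted pair B. The predicted miRNAs as a list had 5 of 51 tested references higher and 12 lower, or 33.3% called against 36.9% over all tested. Their median was -0.74, or -0.16 with total counts. Most of the 12 lower calls were lost when some single CL or PL library was left out, and so was the call of an increase. Several of the 12 were not called with total counts, and 2 of the 12 have the same letters. Among the deepest decreases of the list were 2 single strands, given here by their sequences.
predicted miRNA E: tTGTATTCgatggctctttcacac
predicted miRNA F: tGACAGTCgctctgaagaagct
Predicted miRNA E had 37, 34 and 52 counts in CL and 4, 5 and 0 in PL (log2 fold change -3.97, SE 0.76, edgeR adjusted p = 0.00251), and predicted miRNA F 38, 40 and 36 against 0, 3 and 14. The call of F (adjusted p = 0.023) was lost without CL 2, CL 3 or PL 2, at adjusted p of 0.0567, 0.0686 and 0.108.

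The strands of one hairpin were compared next. Of 68 name pairs listed, 15 had both strands tested. Their log2 fold changes had the same sign in 12 pairs and opposite signs in let-7, miR-219 and predicted pair C. In 6 pairs both strands were called, in 7 one was, and in 2 neither. No pair had its strands called in opposite directions. A ratio of 2 strands within a library does not depend on the library size. By limma on the log2 ratio, 10 of 15 pairs changed (66.7%), 4 toward the -x or 5p strand and 6 toward the -y or 3p strand. The sequences of 14 pairs folded onto each other at -13.2 to -26.9 kcal/mol with RNAduplex. The exception was miR-278 at -6.0, because miR-278-x and miR-278-y start with the same bases and read from the same strand, so that its ratio compares 2 related sequences and not 2 arms. It is nevertheless counted among the 10 changed pairs and the 6 toward -y (change -1.57, limma adjusted p = 0.00249). References of miR-9 and miR-79 lie within or differ by 1 base from one another, so these pairs share reads and are not independent. Likewise miR-8-y and miR-200-y lie within 2 mismatches, which the counting allowed, so the miR-8 and miR-200 pairs may share reads. The ratio of miR-8 was not called changed (0.54, SE 0.37, limma adjusted p = 0.219), and that of miR-200 was.

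**Figure D5:**
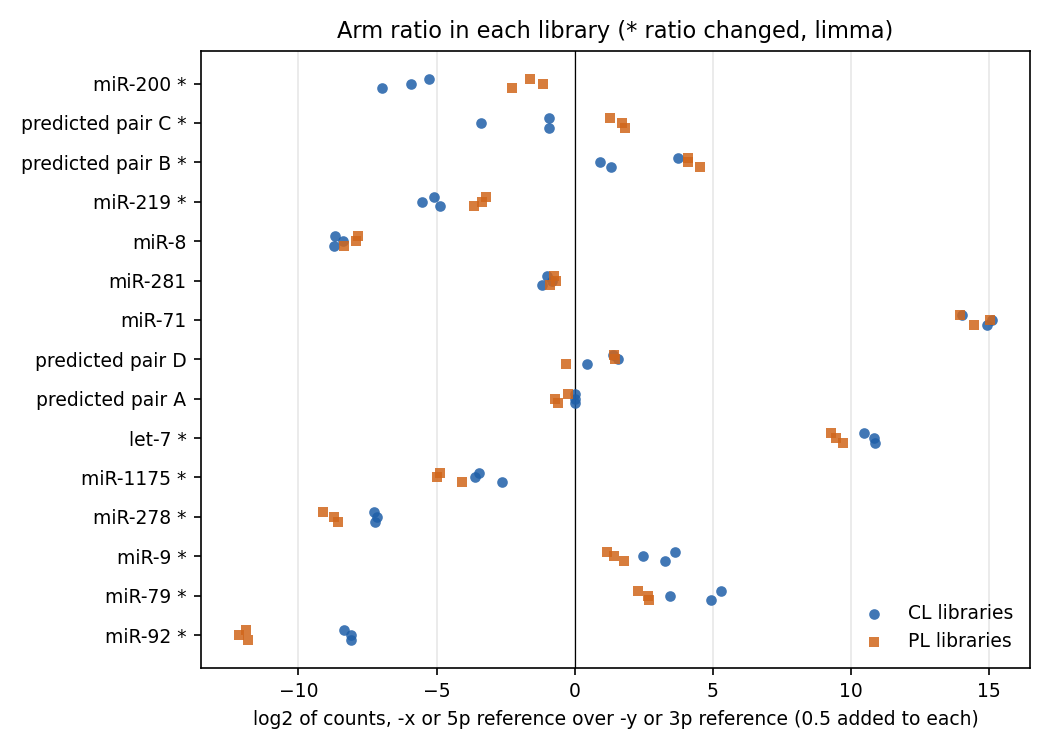
Log2 ratio of the counts of the -x or 5p reference over the -y or 3p reference of each pair (0.5 added to both) in CL (blue circles) and PL (orange squares) libraries; an asterisk marks a changed ratio by limma. The ratios of predicted pair C lie below 0 in CL and above 0 in PL, and that of predicted pair D is below 0 in PL 1 alone.

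In miR-92 the minor strand changed more than the major one. The major strand miR-92-y had 15354, 20689 and 17064 CPM in CL and 9709, 8804 and 13720 in PL (log2 fold change -0.72, SE 0.21, not called). The minor strand miR-92-x had 379, 398 and 233 counts in CL and 13, 14 and 22 in PL, a log2 fold change of -4.53 (SE 0.45, edgeR adjusted p = 0.000121). Its part of the pair's counts dropped from 0.344 ± 0.0324% to 0.0244 ± 0.00295% (SD, n = 3), a change in log2 ratio of -3.78 (SE 0.43, limma adjusted p = 5.25e-06). The 3 ratios of each stage lay close together, between -8.34 and -8.10 in CL and between -12.16 and -11.81 in PL.

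In let-7 the ratio shifted less. The log2 ratio of let-7-x over let-7-y was 10.88, 10.85 and 10.46 in CL and 9.70, 9.46 and 9.29 in PL, a change of -1.25 (SE 0.44, limma adjusted p = 0.0196). It was lost without CL 1, PL 2 or PL 3 (adjusted p = 0.0608, 0.055 and 0.0721). Neither strand was called on its own on the TMM scale. With total counts let-7-y was called higher (log2 fold change 1.22, edgeR adjusted p = 0.00638). In miR-219 the minor strand miR-219-x rose from 2.73 ± 0.572% to 8.69 ± 1.21% of the pair's counts (SD, n = 3), a change of 1.76 (SE 0.51, adjusted p = 0.00657), while miR-219-y had a log2 fold change of -0.24.

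In miR-1175, in which both strands rose, the ratio moved toward the major strand miR-1175-y by -1.41 (SE 0.42, limma adjusted p = 0.00767), and without CL 1 by -1.11 (adjusted p = 0.0608). The minor strand took 9.91 ± 3.41% of the counts in CL and 3.98 ± 1.39% in PL. In miR-9 and miR-79 the ratios moved toward the -y strand, by -1.66 (SE 0.45) and -2.01 (SE 0.46). The miR-9 ratio uses miR-9-x, with 969, 709 and 688 counts in CL. It leaves out miR-9-z, the same sequence without the last base, with 35823, 32792 and 23927 counts in CL. It is thus not the ratio of all reads of these arms. Both strands of miR-281 rose as well, by 1.67 (SE 0.26) for miR-281-x and 1.46 (SE 0.31) for miR-281-y, with ratios of -1.17 to -0.81 in CL and -0.90 to -0.67 in PL (change 0.23, SE 0.39, adjusted p = 0.628). With this SE a shift in either direction is not excluded. The ratio of miR-71 was likewise not called changed (-0.21, SE 0.42), but miR-71-y had only 67 counts over CL and 30 over PL.

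Changes of ratio in rarer pairs rest on few counts. Reference miR-200-x had no count in CL and 14, 31 and 24 in PL, and miR-200-y 112 counts over CL and 213 over PL, so that the fitted change of 4.39 depends on the 0.5 added. For predicted pair B, 5p had 123 counts over CL and 27 over PL, and 3p 43 and 0. For predicted pair C, 5p rose from 11 to 68 counts and 3p went from 44 to 22, a change in log2 ratio of 3.36 (SE 0.61, limma adjusted p = 0.000341), and 5p became the more counted strand in all 3 PL libraries. In predicted pair A, both strands were absent from CL, and 5p took 41.2 ± 4.35% of the pair's counts in PL. When at least 10 counts of both strands were required in every library, 8 pairs remained and 6 of them changed.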

How the data were processed

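Small RNA of 18 to 30 nt was sequenced on an Illumina HiSeq instrument. Per the paper's methods, the authors removed reads of other RNA classes, aligned the rest to miRBase and predicted further miRNAs with MIREAP. They allowed up to 2 mismatches when counting on the references. The deposited counts are whole, unnormalized read counts per reference. The deposited TPM values, and the authors' table of miRNA and target pairs with its fold changes, p-values and correlations, were not used.

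All 9 libraries entered one fit of edgeR 4.0.16 (R 4.3.3; TMM, filterByExpr by stage, quasi-likelihood test of PL minus CL without covariates, Benjamini-Hochberg over 214 references, biological coefficient of variation 0.456). Each SE was taken as the size of the log2 fold change divided by the root of its F statistic. Arm ratios, log2 of counts plus 0.5, were tested with limma 3.58.1, and shares by an exact two-sided permutation test in scipy 1.17.1. Duplexes were computed with ViennaRNA 2.7.2, and tables in Python 3.11.15, pandas 2.3.3 and numpy 2.4.6. A count of 0 allows up to 3 counts, or 0.399 to 0.677 TMM-scaled CPM in a CL or PL library (bounds use the stage mean), for counting error only. P-values measure the spread between these libraries, which may be technical. The edgeR fit was tested on simulated data.

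Members and lists were chosen with earlier results of these data known. The text names the 10 references with the highest share in each stage, the 10 called references with the largest fold change per direction having at least 10 counts in every library of a stage and no overlap, arm pairs that changed or whose strands were both called, and up to 4 members of each list. Others, such as miR-125-x, miR-99-x, miR-276-y, miR-182-x, miR-1992-y, miR-1986-y, miR-745-y, miR-190-x, miR-31-x and predicted miRNA G, were added after their values were seen. Alternatives were total counts or clean reads as library size, DESeq2 1.42.0, no filter, a mean over 10 CPM, only CL and PL libraries, a replicate block, repeated sequences left out, no fold limit, each library left out, and, for arms, 1 added in place of 0.5 or 10 counts in every library. Summing references within 2 mismatches, and leaving out the miR-278 pair, were chosen after seeing the data.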

Additional observations from a re-analysis of the deposited data

How the results depend on the processing

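Calls kept their sign under total counts, clean reads, DESeq2, repeated sequences left out, near-identical references summed and a mean over 10 CPM. Requiring a mean over 10 CPM, which tests fewer references, gave 44 calls, 24 higher and 20 lower. Total counts as library size gave 76 higher and 17 lower. Leaving out 1 library at a time gave 67 to 89 calls, 43 to 57 higher and 22 to 34 lower. These totals hide changes in single calls. Of 123 results compared, 108 log2 fold changes and 15 arm ratios, 21 lost their call when at least 1 library was left out. They were the arm ratios of let-7 and miR-1175 and, for the rest, references among the 79 called. Without a fold limit 95 were called. Summing near-identical references gave 62. The deviations of same-numbered CL and PL libraries had correlations of 0.144, -0.268 and 0.289. The labels give these libraries only a common number, and whether they share more was not tested. A fit with a replicate block called 39 higher and 29 lower, 68 in all.

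The count of pairs whose strands moved the same way was 12, 11 to 13 under the alternatives, and 11 of 14 without the miR-278 pair. Changed arm ratios numbered 6 with 10 counts required in every library, where fewer pairs were tested, 10 with a replicate block, and 8 to 10 with a library left out. The PL minus CL difference in the share of the 10 most abundant references, 1.39 percentage points, was -7.39 with clean reads as the total and -0.714 with repeated sequences left out, so its direction is not settled. Depth limits the references with no count in a stage to lower bounds.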

Other observations

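Some references that carry names of vertebrate miRNAs differed between the CL libraries. Of the tested references, 14 had at least 10 counts in CL 1 and over 4 times the CPM of both other CL libraries, against 1 for CL 2 and 0 for CL 3. They include miR-122-x, a liver miRNA of vertebrates, at 918, 61.8 and 178 CPM in CL and 775, 1490 and 372 in PL, and miR-148-y at 173, 17.8 and 22.1 CPM in CL and 169, 229 and 90.7 in PL. Of the 14, only miR-182-x was called between CL and PL. PL 3 held the lowest PL value of both miR-122-x and miR-148-y.

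The 373 references of 18 nt held 0.0666 ± 0.00867% of the miRNA counts in CL and 0.0576 ± 0.0219% in PL (SD, n = 3), so that they were a small part of the pool in both stages. Of the 11 tested references that end in CCA, the end of mature tRNA, 3 were lower in PL and none was higher. Over all tested references 14.5% were lower and 22.4% higher, or 36.9% called. The 3 were miR-9852-y, miR-3968-y and predicted miRNA G. The call of miR-3968-y (edgeR adjusted p = 0.0383) was lost when any CL or PL library was left out, and with total counts (0.0568). Predicted miRNA G was not called with total counts either (-0.87, edgeR adjusted p = 0.0575), whereas miR-9852-y was still called lower.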
